A study of Mus musculus with 21 samples.

Results

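The mitosis genes examined here are 39 genes of the machinery that divides a cell, picked by name and role. No measured value was used in the rule, although earlier results of these data were known when genes and lists were chosen. They comprise cyclins and mitotic kinases, spindle checkpoint proteins, anaphase regulators, kinetochore parts, kinesin motors, spindle proteins, cytokinesis factors and chromosome proteins. Of the 39 genes, 38 were matched to a named probe set among the 22206 probe sets tested, each to 1 probe set, and Ccnb1 (cyclin B1) is unnamed here and not analysed. The tumours were grown from Hepa1-6 cells, an established mouse hepatoma line, placed beneath the skin of female C57BL/6J mice aged 5 to 6 weeks. A mouse was randomised once its tumour measured 200 mm3. The placebo arm (6 mice) was given drug vehicle with polyclonal IgG, and the lenvatinib arm (5 mice) was given lenvatinib at 10 mg/kg by daily gavage. The anti-PD1 arm (5 mice) received an antibody to mouse PD-1 at 10 mg/kg into the peritoneum, 5 doses at intervals of 3 days, and the combination arm (5 mice) received both agents. The labels do not say whether the single-agent arms were also given vehicle or IgG, so differences between arms may include those of vehicle or IgG. Each tumour was collected 13 days after randomisation, 2 h after the last lenvatinib and 1 day after the last antibody dose in the arms given them, and RNA from 30 mg of it was hybridised to 1 Clariom S mouse array. As a model the study rests on 1 cell line growing outside the liver in young females, and each piece holds tumour and host cells together. Lenvatinib is an inhibitor of the VEGF and FGF receptors and related kinases, and the PD-1 receptor restrains activated T cells.

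Mitosis genes are transcribed late in the cell cycle, in G2 and M, and are kept low in resting cells, so their messages are widely used as a measure of how many cells of a tissue are dividing. Many of their promoters carry a CHR element (cell cycle genes homology region), bound by the DREAM complex in resting cells and by MYB-MuvB with FOXM1 in dividing cells, together with CCAAT boxes bound by NF-Y. Hepatoma cells are the fast-cycling cells of a Hepa1-6 tumour, while activated lymphocytes, macrophages and endothelium can divide as well.

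The promoters show what the list shares in sequence. RefSeq promoters of 300 bases, from 250 bases before to 50 after the start in GRCm38.p6, held 36 promoters for 34 of the 39 genes. The genes Tpx2, Kif20a, Cdc25c, Ccna2 and Aurkb had no entry in that table. The CHR letters TTTGAA or TTCGAA, on either strand, were found in 29 of the 36 promoters (80.6%), against 19.2% of all 32851 promoters of the table and 17.0% of the 19143 promoters of genes named on the array. The CCAAT box, on either strand, was found in 77.8% of the list's promoters and 37.4% of all, and 2 or more such boxes in 55.6% and 11.7%. Both motifs stood together in 72.2% of the list's promoters against 7.52% of all. The E2F-like letters GCGGGAA were found in 0 of the 36 promoters and in 4.6% of all, but in 43.3% of 30 promoters of DNA replication genes, of which 16.7% held CHR letters. Their absence was not shared by a list of other mitosis genes. Of its 56 promoters, 19.6% held the E2F-like letters, against 6.19% for genes named on the array, and 60.7% held CHR letters. CHR letters were found in 27 of the 34 genes, and in 25 of them a match lay within 30 bases before to 50 after the start. The 7 genes without a match were Birc5, Ccnb1, Cenpe, Mad2l1, Nuf2, Nusap1 and Pttg1. These are letter matches, not measured binding sites. A CCAAT box can overlap its own reverse match, as in the CCAATTGG of Ube2c.

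Stretches of 4 promoters are printed, those of the genes with the highest mean signal among the ones holding both motifs, to show the order of the boxes and the CHR letters. They are printed 5′ to 3′ on the gene's strand, with CHR letters and CCAAT boxes of either strand in capitals. The Mki67 stretch is chr7:135716457-135716582 on the minus strand, bases -203 to -78 from the start. The Cenpa stretch is chr5:30666762-30666915 on the plus strand, bases -124 to 30. The Ube2c stretch is chr2:164769686-164769920 on the plus strand, bases -243 to -9. The Ccnb2 stretch is chr9:70421530-70421736 on the minus strand, bases -182 to 25.
Mki67: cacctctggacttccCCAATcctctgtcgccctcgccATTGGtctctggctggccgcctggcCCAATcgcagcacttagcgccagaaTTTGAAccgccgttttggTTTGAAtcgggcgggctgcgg
Cenpa: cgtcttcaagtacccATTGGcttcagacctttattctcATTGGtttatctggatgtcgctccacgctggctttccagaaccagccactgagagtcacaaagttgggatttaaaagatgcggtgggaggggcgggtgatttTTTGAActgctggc
Ube2c: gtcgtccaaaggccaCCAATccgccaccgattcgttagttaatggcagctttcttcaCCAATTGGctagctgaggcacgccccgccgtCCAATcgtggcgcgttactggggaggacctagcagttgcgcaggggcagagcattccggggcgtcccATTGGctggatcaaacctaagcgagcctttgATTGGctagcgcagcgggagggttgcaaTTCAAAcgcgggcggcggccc
Ccnb2: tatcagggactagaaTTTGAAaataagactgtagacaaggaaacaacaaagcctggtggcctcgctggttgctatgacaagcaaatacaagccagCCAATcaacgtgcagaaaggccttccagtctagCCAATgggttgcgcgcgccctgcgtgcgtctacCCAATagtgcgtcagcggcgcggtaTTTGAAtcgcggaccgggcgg

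In each of the 4 stretches the last CHR match follows the last CCAAT box, whose number ranges from 2 in Cenpa to 6 in Ube2c. The plot of motif shares by gene list sets the promoters of the mitosis genes beside those of the other cell cycle lists.

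**Figure D1:**
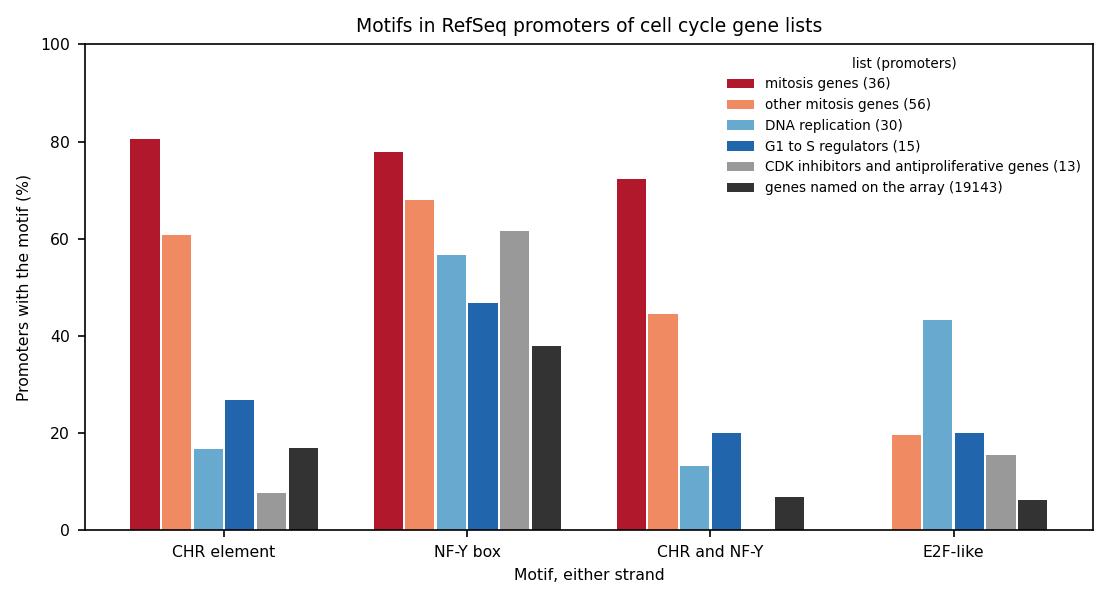
Share of RefSeq promoters (percent, y axis) that hold each motif on either strand (x axis), by gene list, with the number of promoters of each list in brackets. The mitosis genes hold CHR letters in 80.6% and the E2F-like letters in 0% of 36 promoters, whereas the DNA replication genes hold them in 16.7% and 43.3% of 30. The other mitosis genes hold them in 60.7% and 19.6% of 56.

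Levels are deposited log2 signals, so a difference of 1 is a 2-fold difference in signal. Array medians lay between 5.32 and 5.49. On 6 arrays (mice 4 and 6 of the placebo arm, 1 and 2 of the lenvatinib arm, and mouse 1 of each antibody-treated arm) the hybridization controls, spiked in to check the staining, were brighter, at 11.33 to 11.74 against 10.34 to 10.91 on the other 15. The same 6 arrays had a narrower spread of values, with an interquartile range of 2.41 to 2.82 against 3.00 to 3.25. The mice carried very unequal amounts of skeletal muscle RNA, with a muscle marker score between -1.91 and 4.79. Of 12 hepatoma markers measured, 10, Alb and Foxa2 among them, lay above the negative-control median of 4.076 in every mouse, while Afp and Hnf4a did so in 20 of 21. Of the 38 mitosis genes, 23 lay above that median in every mouse and 34 in all 4 arm means. The dim ones were Kif4, below it in all 4 arm means, Bub1b and Cdc25c, above it in 1, and Ect2, above it in 3.

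The mitosis genes moved together from mouse to mouse. All 703 pairs of the 38 genes had a correlation above 0 over the 21 mice, with a median of 0.81 and a range of 0.35 to 0.97, and the median was again 0.81 with arm means removed. The median correlation of a mitosis gene with another probe set was -0.04. The first principal component took 80.2% of their variance and the second 5.52%. These correlations are descriptions over mice measured on the same arrays and normalised together, and a list of genes chosen for 1 process has no claim to independent members. Aurkb, the kinase of the chromosomal passenger complex, and Plk1, polo-like kinase 1, followed the mean of the others most closely (r = 0.98 each). Cenpa, the histone H3 variant of centromeres, followed it least (r = 0.68), with Cdca8 (0.69), Pttg1 (0.72) and Bub1b (0.76) next. With arm means removed Pttg1 was lowest (0.68), then Cdca8 (0.70) and Bub1b (0.71), and Cenpa stood at 0.79. The within-arm SD of the mitosis genes had a median of 0.92, against 0.44 for probe sets above background, and exceeded that median for 37 of the 38 genes.

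**Figure D2:**
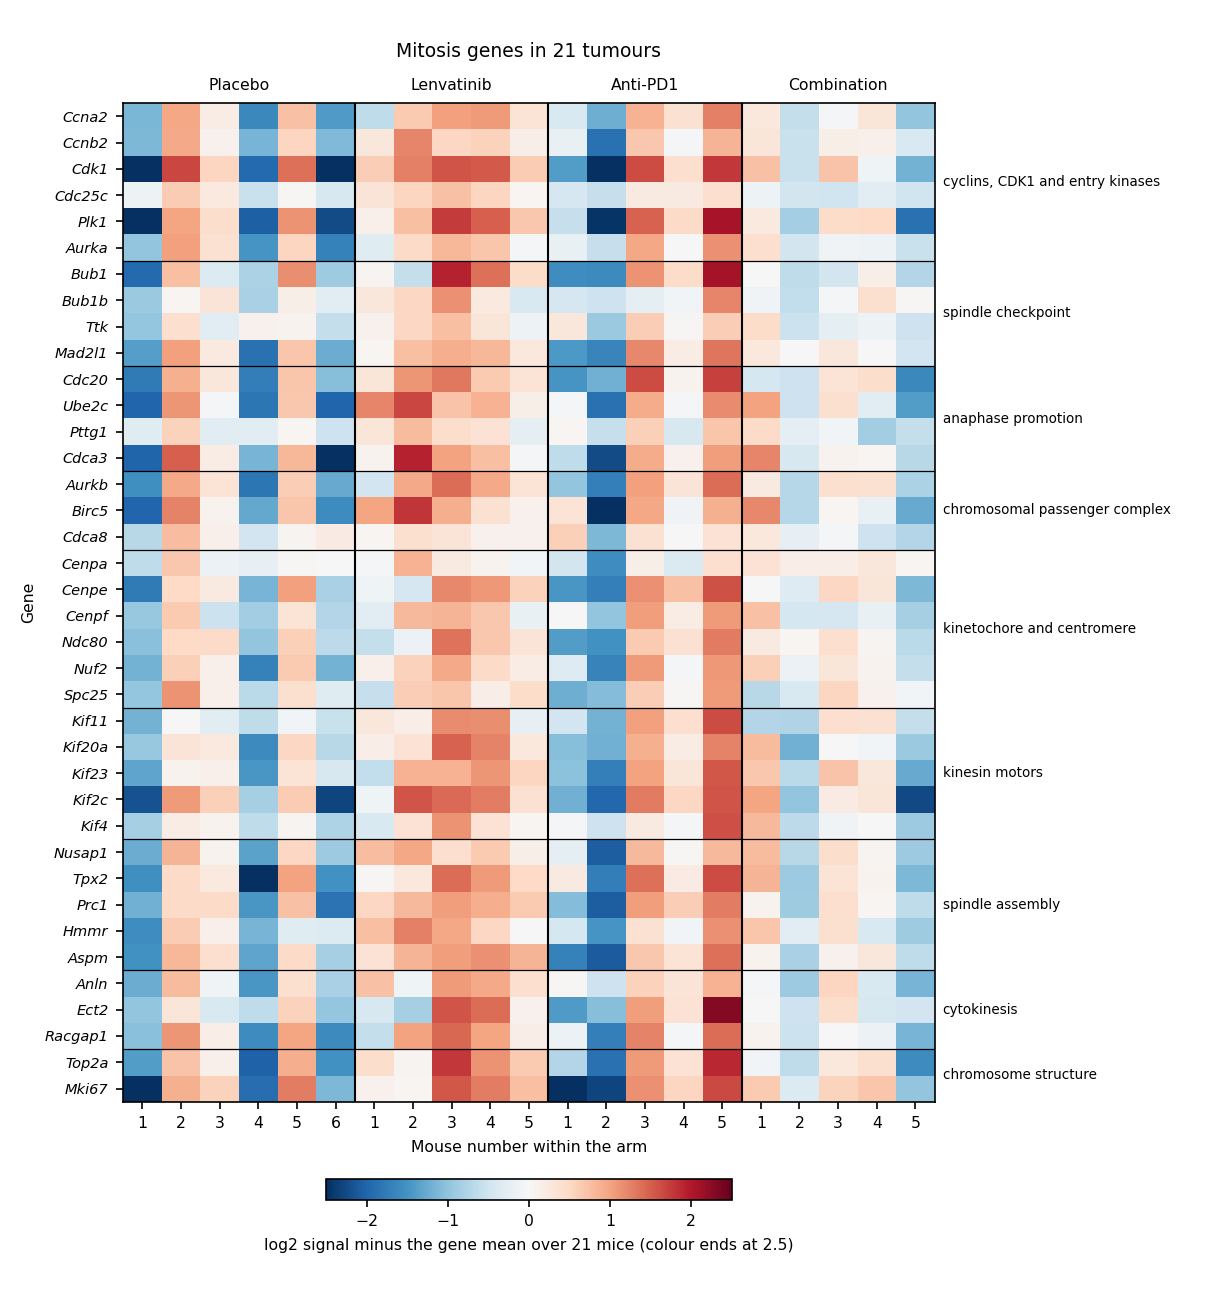
Log2 signal of the 38 mitosis genes (rows, grouped by role) in 21 tumours (columns, by arm and mouse number), each gene centred on its mean over the mice, with red above and blue below that mean. Columns at the extremes are nearly uniform in colour, as in anti-PD1 mouse 5 (score 1.28, 38 genes above their mean) and anti-PD1 mouse 2 (score -1.52, 0 above). Columns between them are mixed, as in lenvatinib mouse 1 (25 genes above) and combination mouse 4 (23 above).

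The mitosis score is the mean over the 38 genes after each was centred on its mean over all mice. Placebo mice 1 to 6 scored -1.36, 0.74, 0.14, -1.24, 0.56 and -1.10, and lenvatinib mice 1 to 5 scored 0.10, 0.65, 1.07, 0.82 and 0.25. Anti-PD1 mice 1 to 5 scored -0.66, -1.52, 0.88, 0.19 and 1.28, and combination mice 1 to 5 scored 0.35, -0.54, 0.20, 0.04 and -0.87. All 5 lenvatinib tumours lay above 0, while the other arms held tumours on both sides of it and every arm overlapped every other. The anti-PD1 arm held both the highest tumour, which was also the highest for 22 single genes, and the lowest, which was the lowest for 12. Between those tumours the score differed 6.93-fold. The arm means were -0.38 ± 0.96 for placebo (SD, n = 6), 0.58 ± 0.40 for lenvatinib, 0.03 ± 1.14 for anti-PD1 and -0.16 ± 0.52 for the combination (SD, n = 5 each). Differences between arms held 18.7% of the variance of the score, where 15% is expected with no effect of the arms. In bulk tissue, fewer dividing cells and less mitotic RNA per cell cannot be told apart. The mean score was -0.32 on the 6 arrays with bright controls and 0.13 on the others, and the part of that signal in the differences below was not tested beyond the values given with them.

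**Figure D3:**
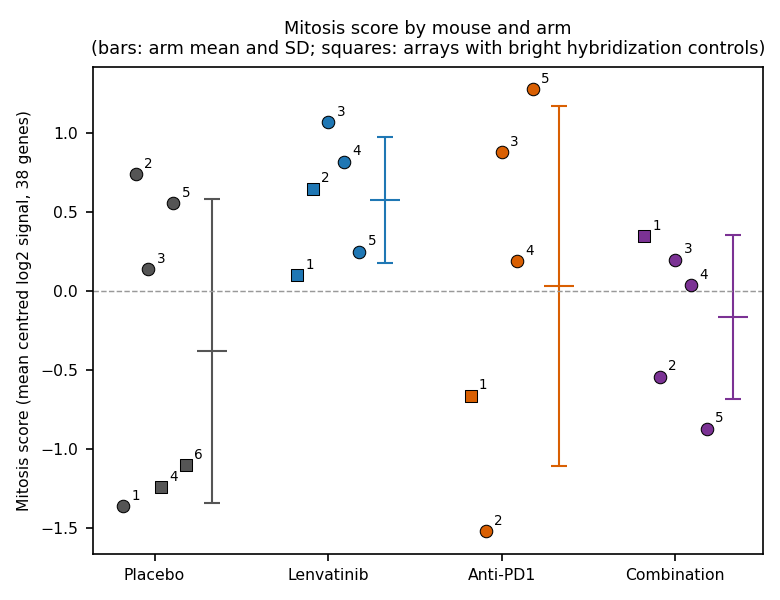
Mitosis score (mean centred log2 signal of 38 genes, y axis) of each mouse by arm (x axis), with bars at the arm mean and SD and squares for the 6 arrays with bright hybridization controls. Lenvatinib tumours lie between 0.10 and 1.07, and anti-PD1 tumours between -1.52 and 1.28.

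Among the cyclins and entry kinases, Cdk1, the kinase that drives entry into mitosis, had the widest range of all 38 genes, 31.2-fold. Cdk1 read 4.40, 9.12, 7.99, 5.52, 8.84 and 4.27 in placebo mice 1 to 6 and 8.06, 8.72, 9.02, 8.99 and 8.09 in the lenvatinib mice. It read 6.05, 4.44, 9.08, 7.87 and 9.23 in the anti-PD1 mice and 8.18, 6.89, 8.17, 7.34 and 6.27 in the combination mice. The lenvatinib tumours were uniformly high, and the placebo and anti-PD1 arms each held tumours near both ends of the range. The arm means were 6.69 ± 2.22 (SD, n = 6), 8.58 ± 0.48, 7.33 ± 2.06 and 7.37 ± 0.83 (SD, n = 5 each) in the order placebo, lenvatinib, anti-PD1, combination. Plk1, which acts at centrosomes, kinetochores and the cleavage furrow, ranged 23.8-fold, from 3.90 in placebo mouse 1 to 8.48 in anti-PD1 mouse 5. Ccna2 (cyclin A2) and Ccnb2 (cyclin B2), partners of Cdk1, ranged 7.28-fold and 8.54-fold, and Aurka, the centrosomal aurora kinase, 7.06-fold. Cdc25c, a phosphatase that activates Cdk1, was dim and ranged 2.47-fold, the narrowest of the list. It read 3.66, 4.43, 4.05, 3.24, 3.82 and 3.39 in the placebo mice and 4.11, 4.33, 4.53, 4.34 and 3.85 in the lenvatinib mice. Its values were 3.38, 3.22, 4.03, 4.03 and 4.21 in the anti-PD1 mice and 3.66, 3.34, 3.30, 3.51 and 3.30 in the combination mice. Every combination tumour lay below every lenvatinib tumour for Cdc25c, although all 5 combination values were below the negative-control median.

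The spindle checkpoint holds back anaphase until all chromosomes are attached. Its kinase Bub1 ranged 16.2-fold, from 3.43 in placebo mouse 1 to 7.45 in anti-PD1 mouse 5. Mad2l1, the checkpoint protein that binds CDC20, ranged 9.30-fold with arm means of 8.05, 9.03, 8.40 and 8.49. The kinase Ttk, which starts the checkpoint signal, ranged 3.26-fold, and Bub1b (BUBR1), an inhibitor of the anaphase-promoting complex, 4.43-fold. Anaphase is released by the anaphase-promoting complex, whose activator Cdc20 ranged 11.1-fold and whose ubiquitin-conjugating enzyme Ube2c ranged 12.7-fold. Ube2c read 6.05, 9.14, 8.0, 6.24, 8.71 and 6.06 in the placebo mice and 9.26, 9.71, 8.75, 8.90 and 8.19 in the lenvatinib mice. It read 8.01, 6.17, 8.97, 7.99 and 9.22 in the anti-PD1 mice and 9.04, 7.52, 8.44, 7.78 and 6.64 in the combination mice. The lenvatinib tumours again occupied the upper end and overlapped the highest placebo tumours. Cdca3, a mitotic entry factor, ranged 22.6-fold, and Pttg1 (securin, the separase inhibitor) 3.13-fold.

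The chromosomal passenger complex corrects wrong attachments and then acts in cytokinesis. Its subunit Birc5 (survivin) ranged 20.6-fold, Aurkb 9.30-fold and Cdca8 (borealin) 3.72-fold. Within the complex Cdca8 had the smallest differences between arms, with means of 6.10 ± 0.53 (SD, n = 6), 6.30 ± 0.16, 6.14 ± 0.69 and 5.85 ± 0.39 (SD, n = 5 each). Among the kinetochore genes, the outer-kinetochore parts Ndc80, Nuf2 and Spc25 ranged 7.32-fold, 6.75-fold and 5.14-fold, and the motor Cenpe 10.3-fold. Cenpa read 7.56, 8.86, 8.04, 7.99, 8.23 and 8.18 in the placebo mice and 8.14, 9.07, 8.42, 8.28 and 8.12 in the lenvatinib mice. It read 7.74, 6.64, 8.34, 7.84 and 8.62 in the anti-PD1 mice and 8.56, 8.37, 8.37, 8.48 and 8.24 in the combination mice. The combination tumours held Cenpa within a narrow band (SD 0.12, n = 5), and 1 anti-PD1 tumour stood far below the rest.

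Kinesin motors slide and shorten the spindle's microtubules. The depolymerase Kif2c ranged 14.5-fold, the cytokinesis motors Kif23 and Kif20a 9.55-fold and 8.35-fold, and Kif11 (Eg5), which pushes the poles apart, 7.03-fold. Kif4, a chromosome-bound motor, ranged 5.71-fold and lay above background in 3 mice. Of the spindle proteins, Tpx2, which activates aurora A, ranged 23.2-fold, and Nusap1, a microtubule bundler, 8.13-fold. Aspm, a spindle pole protein, read 4.37, 6.71, 6.30, 4.56, 6.35 and 5.04 in the placebo mice and 6.24, 6.72, 6.93, 7.01 and 6.73 in the lenvatinib mice. Its values were 4.19, 3.80, 6.55, 6.22 and 7.26 in the anti-PD1 mice and 5.97, 5.06, 5.98, 6.15 and 5.25 in the combination mice. For Aspm and for Prc1, the protein that crosslinks midzone microtubules, every combination tumour lay below every lenvatinib tumour. Anln (anillin), the scaffold of the contractile ring, read 4.26, 6.30, 5.42, 4.05, 5.91 and 4.69 in the placebo mice and 6.24, 5.40, 6.57, 6.46 and 5.92 in the lenvatinib mice. It read 5.54, 4.99, 6.09, 5.83 and 6.38 in the anti-PD1 mice and 5.46, 4.59, 6.04, 5.12 and 4.34 in the combination mice. The lenvatinib and combination arms overlapped for Anln, although no combination tumour reached the lenvatinib mean of 6.12. Ect2 and Racgap1, which activate RhoA at the furrow, ranged 13.1-fold and 8.77-fold.

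Mki67 (Ki-67, the pathologist's proliferation marker, a coat of mitotic chromosomes) read 5.85, 9.23, 8.91, 6.43, 9.61 and 7.21 in the placebo mice and 8.45, 8.39, 9.90, 9.61 and 9.09 in the lenvatinib mice. It read 5.76, 6.04, 9.49, 8.87 and 9.99 in the anti-PD1 mice and 9.0, 8.0, 8.90, 9.04 and 7.36 in the combination mice. For Mki67, 3 placebo and 2 anti-PD1 tumours lay below every tumour of the lenvatinib and combination arms. Top2a, the topoisomerase that untangles sister chromatids, read 5.71, 7.81, 7.24, 5.09, 8.01 and 5.59 in the placebo mice and 7.55, 7.17, 8.87, 8.23 and 7.77 in the lenvatinib mice. Its values were 6.37, 5.25, 8.18, 7.47 and 9.0 in the anti-PD1 mice and 7.04, 6.47, 7.37, 7.51 and 5.53 in the combination mice. For Top2a the lowest tumours were 3 of the placebo arm (mice 1, 4 and 6), anti-PD1 mouse 2 and mouse 5 of the combination, and every arm overlapped every other.

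Lenvatinib alone was compared with placebo, the arm given vehicle with IgG. All 38 mitosis genes had a higher mean under lenvatinib, with a median log2 difference of 0.98 against -0.01 over all probe sets, and none passed an adjusted p under 0.05 in limma with Benjamini-Hochberg adjustment. That threshold was passed by 0% of all probe sets as well. At an unadjusted p under 0.05, 12 of 38 genes (31.6%) were higher, against 2.92% of all probe sets. The genes share mice and move together, so these 12 are not independent counts. Without the 6 arrays with bright controls the median was 0.65 and 0 genes had such a p. The count was 3 with the replicate block, 19 in a fit of only the 2 arms and 23 with array weights. The 2.92% belongs to the main fit, and no share over all probe sets is given for these other fits. The smallest p belonged to Hmmr, a hyaluronan receptor that also binds the spindle (difference 1.13 ± 0.42 SE, 95% interval 0.26 to 2.01, limma adjusted p = 0.693). Next came Ube2c (1.60 ± 0.61, 0.33 to 2.86) and Anln (1.01 ± 0.39, 0.21 to 1.82), each at an adjusted p of 0.693 in limma. Cdk1 had the largest difference, 1.88 ± 0.90 (0.01 to 3.75), with Top2a at 1.34 ± 0.62 (0.06 to 2.63) and Mki67 at 1.22 ± 0.76 (-0.37 to 2.80). For these 6 genes all 5 lenvatinib tumours lay above the placebo mean. The largest p belonged to Cdca8 (0.20 ± 0.28) and Spc25 (0.32 ± 0.41). By role, the median difference ran from 0.62 for the 6 kinetochore and centromere genes to 1.28 for Top2a with Mki67. It was 0.80 for the 4 checkpoint genes and 1.23 for the 4 genes listed under anaphase (Cdc20, Ube2c, Pttg1 and the entry factor Cdca3). Among the 5 spindle assembly genes, 4 had an unadjusted p under 0.05. Leaving out 1 mouse at a time moved the median between 0.76 (without placebo mouse 4) and 1.18 (without placebo mouse 2).

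Anti-PD1 alone was compared with the same placebo arm. The median difference was 0.44 with 36 of 38 genes above 0, and 0 genes had an unadjusted p under 0.05. No gene and 0% of probe sets passed the adjusted threshold in limma. The smallest p belonged to Kif11 (0.74 ± 0.41), Anln (0.66 ± 0.39) and Tpx2 (1.05 ± 0.64), and the largest to Aspm (0.05 ± 0.54) and Cdc25c (0.01 ± 0.22). Cdk1 differed by 0.64 ± 0.90, Top2a by 0.68 ± 0.62 and Mki67 by 0.16 ± 0.76. Cenpa ran the other way, at -0.30. The intervals were wide, from -1.23 to 2.51 for Cdk1, and the median was 0.09 without anti-PD1 mouse 5 and 0.86 without anti-PD1 mouse 2. It was 0.16 without the arrays with bright controls, 0.27 with the replicate block and 0.72 with array weights.

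The combination was compared with placebo to ask what both agents did together. The median difference was 0.21 with 33 of 38 genes above 0, 0 genes had an unadjusted p under 0.05, and 0 genes and 0% of probe sets passed the adjusted threshold in limma. Cdc25c had the smallest p (-0.34 ± 0.22), followed by Nuf2 (0.49 ± 0.46) and Cenpa (0.26 ± 0.28). Bub1 (0.00 ± 0.63) and Anln (0.01 ± 0.39) had the largest. Cdk1 differed by 0.68 ± 0.90, Mki67 by 0.59 ± 0.76 and Top2a by 0.21 ± 0.62. The sign of the median turned to -0.34 without the 6 arrays with bright controls, an alternative chosen after seeing the data, and to -0.05 with array weights. It was 0.04 without placebo mouse 1, 0.42 without placebo mouse 2 and 0.06 with the replicate block.

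The combination was compared with lenvatinib to ask what the antibody added. In the combination 37 of 38 genes had a lower mean, with a median difference of -0.70, and 0 genes and 0% of probe sets passed the adjusted threshold in limma. At an unadjusted p under 0.05, 3 genes were lower (7.89%), against 2.53% of all probe sets. They were Cdc25c (-0.81 ± 0.23, 95% interval -1.28 to -0.34, limma adjusted p = 0.780), Anln (-1.01 ± 0.41) and Pttg1 (-0.60 ± 0.28). The 3 genes whose combination tumours all lay below all lenvatinib tumours were Cdc25c, Prc1 and Aspm, where 0.482% of all probe sets did so. Cdk1 differed by -1.20 ± 0.94, Top2a by -1.13 ± 0.64 and Mki67 by -0.63 ± 0.80, and no combination tumour reached the lenvatinib mean for any of them. Cenpa (0.00 ± 0.29) and Ndc80 (-0.30 ± 0.50) had the largest p. When arrays were weighted by their scatter (0.268 and 0.361 for mice 1 and 2 of the lenvatinib arm, 3.63 for its mouse 4), Cdc25c and Kif20a passed at adjusted p of 0.0277 and 0.0392 in limma. They passed there among 707 of the 22206 probe sets, and every combination value of Cdc25c was below the negative-control median. In that fit 27 genes had an unadjusted p under 0.05, against 20 in a fit of only the 2 arms. The 2.53% belongs to the main fit, and no share over all probe sets is given for these 2 fits.

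The combination was also compared with anti-PD1, with a median difference of -0.24 and 26 of 38 genes below 0. No gene had an unadjusted p under 0.05, and 0 genes and 0% of probe sets passed the adjusted threshold in limma. Cenpa had the smallest p (0.57 ± 0.29), with all 5 combination tumours above the anti-PD1 mean, then Anln (-0.65 ± 0.41) and Cdc25c (-0.35 ± 0.23). Cdk1 (0.04 ± 0.94) and Hmmr (0.01 ± 0.44) had the largest, with Top2a at -0.47 ± 0.64 and Mki67 at 0.43 ± 0.80. The median turned to 0.09 without anti-PD1 mouse 5, the tumour with the highest score, and was -0.60 without anti-PD1 mouse 2. With array weights it was -0.80, with 37 of 38 genes lower and 15 at an unadjusted p under 0.05. No share of all probe sets at that p is given for the fit with array weights. The median was -0.50 without the arrays with bright controls, again with 37 lower. Between the single agents, all 38 genes had a higher mean under lenvatinib, with a median difference of 0.54, and again 0 genes and 0% of probe sets passed in limma, with 0 genes at an unadjusted p under 0.05. Cdc25c (0.46 ± 0.23), Aspm (1.12 ± 0.56) and Cenpa (0.57 ± 0.29) had the smallest p, and Kif4 (0.05 ± 0.37) and Aurka (0.06 ± 0.46) the largest. Cdk1 differed by 1.24 ± 0.94, Mki67 by 1.06 ± 0.80 and Top2a by 0.66 ± 0.64. The median was 0.16 without anti-PD1 mouse 2, 0.84 without anti-PD1 mouse 5 and 0.20 with array weights.

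The interaction asks whether the effects of the agents add up on the log2 scale, as combination minus lenvatinib minus anti-PD1 plus placebo. The median was -1.13, with 37 of 38 genes below 0 and Cenpa, at 0.30, above. No gene and 0% of probe sets passed the adjusted threshold in limma. At an unadjusted p under 0.05, 4 genes were lower (10.5%), against 3.31% of all probe sets. Anln had the smallest p (-1.67 ± 0.56, 95% interval -2.84 to -0.50, limma adjusted p = 0.298), then Cdc25c (-0.82 ± 0.31) and Kif11 (-1.51 ± 0.60). Top2a stood at -1.81 ± 0.89, Cdk1 at -1.85 ± 1.30 and Mki67 at -0.79 ± 1.10, and Ndc80 (-0.37 ± 0.69) and Spc25 (-0.30 ± 0.59) had the largest p. With array weights the median was -1.87 and 10 genes passed in limma, among 1691 of the 22206 probe sets. They were Cdc25c, Bub1, Ttk, Cenpf, Kif11, Kif20a, Kif4, Anln, Ect2 and Top2a. Of these, Kif4, Cdc25c, Ect2 and Kif20a lay above the negative-control median in only 3, 6, 10 and 14 of 21 mice. The 7 comparisons share arms, so their values are not independent of each other.

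**Figure D4:**
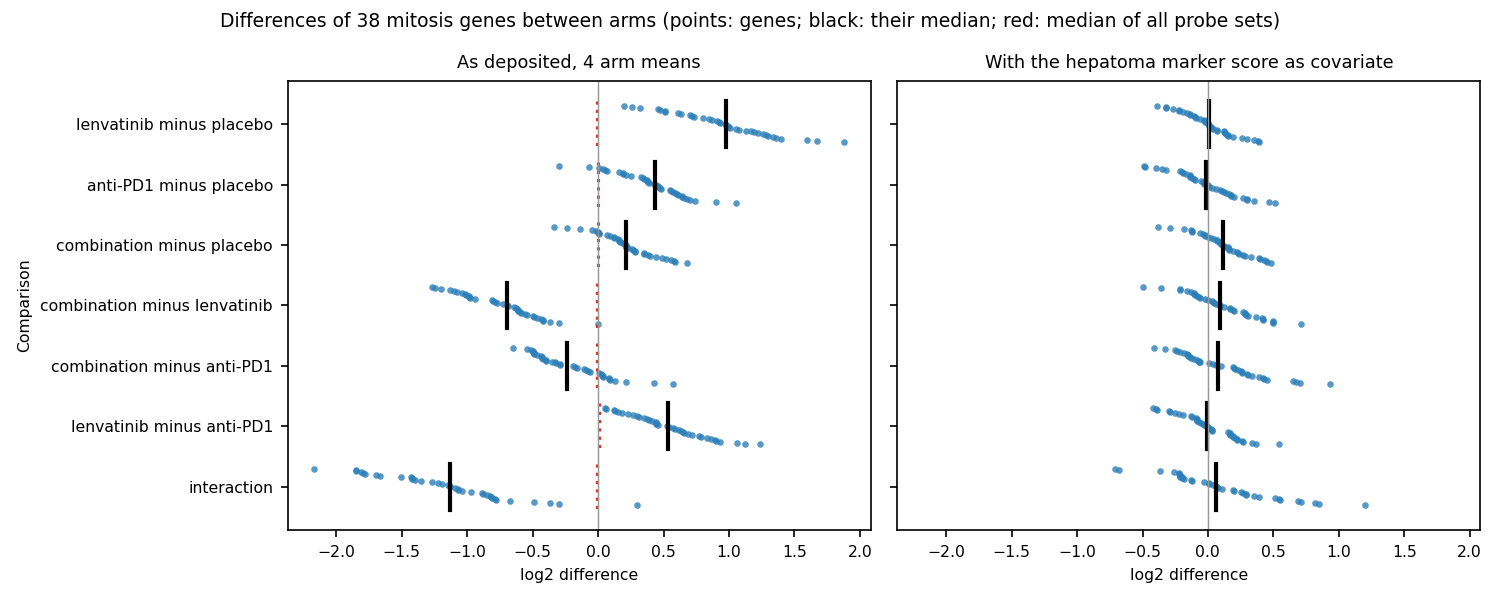
Log2 differences of the 38 mitosis genes (points, x axis) for 6 pairs of arms and the interaction (y axis), from limma with 4 arm means (left) and with the hepatoma marker score as a covariate (right), with black bars at their median and, on the left, red bars at the median of all probe sets. The medians run from -1.13 to 0.98 on the left and from -0.02 to 0.12 on the right.

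The mitosis score followed the markers of the hepatoma cells. Over 21 mice its correlation with the score of 12 hepatoma markers was r = 0.96 (Spearman's rho 0.97), 0.95 with arm means removed and 0.94 without the 2 mice farthest from the median. It was 0.94 within the 6 arrays with bright controls and 0.96 within the other 15. All 12 markers had a correlation above 0, led by the liver transcription factor Foxa2 (0.96), Fgb and Hnf4a (0.91 each), Afp (0.88) and Alb (0.87), with Gpc3 lowest (0.26). The hepatoma score ranged from -1.57 to 0.98 in placebo, 0.28 to 1.18 in lenvatinib, -1.43 to 1.20 in anti-PD1 and -1.34 to 0.85 in combination tumours. Its median gene difference was 0.94 for lenvatinib against placebo and -0.92 for the combination against lenvatinib.

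Markers of stromal tissue ran the other way. The score of 6 adipocyte markers had r = -0.77 with the mitosis score (rho -0.75, and -0.69 without the 2 farthest mice), with all 6 genes below 0. It ranged from -1.70 to 2.56 in placebo, -2.93 to 0.11 in lenvatinib, -2.69 to 3.13 in anti-PD1 and -3.09 to 1.11 in combination tumours. The score of 7 fibroblast markers also had r = -0.77 (rho -0.75), ranging from -0.69 to 0.85, -0.73 to 0.47, -0.91 to 0.45 and -0.37 to 0.54 in the same order, with Fn1 (0.83) and Dcn (0.35) above 0. The endothelial score had r = -0.51, which was -0.19 without the 2 farthest mice. Over all 21 mice the T cell (-0.07), B cell (-0.01), macrophage (-0.24), neutrophil (0.04) and skeletal muscle (-0.23) scores lay nearer to 0. Without the 2 farthest mice they were -0.41, -0.14, -0.51, -0.39 and 0.07 in that order, and on the 6 arrays with bright controls -0.60, -0.23, -0.73, -0.57 and 0.63, so these values rest on few mice. These are descriptions over mice that share arrays and normalization, and the composition of the pieces cannot be told apart from the rate of division within the hepatoma cells.

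**Figure D5:**
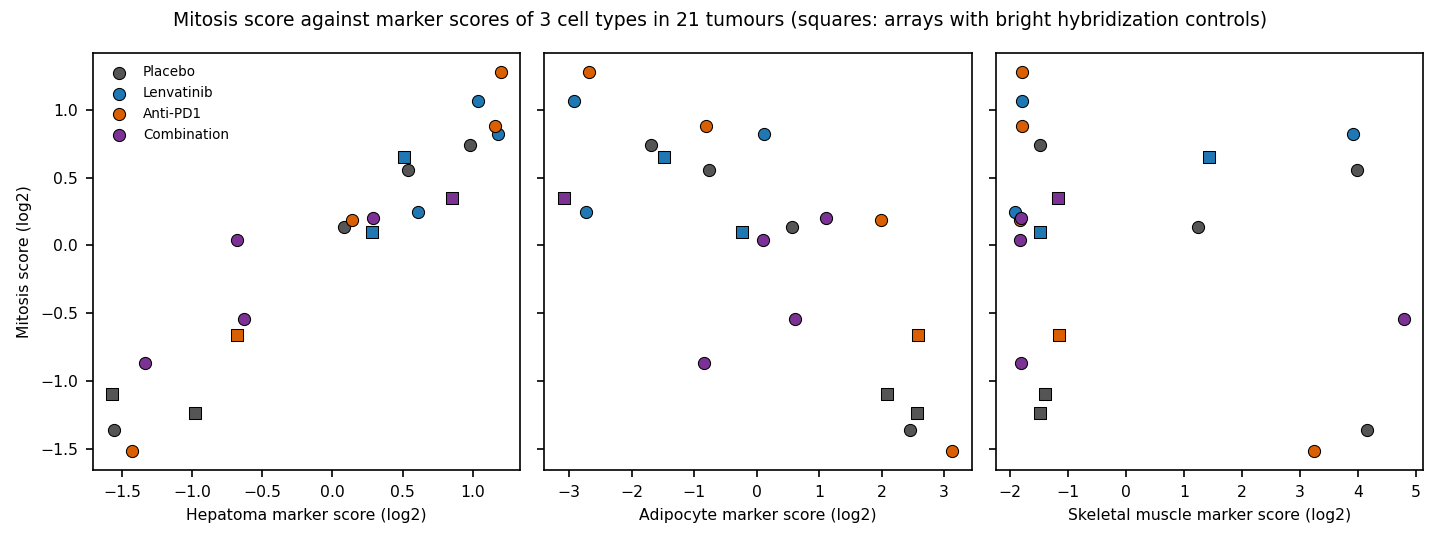
Mitosis score (y axis, log2) against the marker scores of hepatoma cells, adipocytes and skeletal muscle (x axes, log2) in 21 tumours coloured by arm, with squares for arrays with bright hybridization controls. The hepatoma panel has r = 0.96, the adipocyte panel -0.77 and the muscle panel -0.23.

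With the hepatoma score added to the fit as a covariate, chosen after seeing the data, the median difference of the mitosis genes was 0.00 for lenvatinib against placebo, -0.02 for anti-PD1 against placebo and 0.12 for the combination against placebo. It was 0.09 for the combination against lenvatinib, 0.08 for the combination against anti-PD1, -0.01 for lenvatinib against anti-PD1 and 0.07 for the interaction. The numbers of genes above 0 were 19, 18, 27, 25, 22, 18 and 23 of 38 in that order, and no gene passed in any comparison. The median SE for lenvatinib against placebo went from 0.52 to 0.30. The hepatoma score was itself measured after treatment, so a difference that travels with it is taken out whatever its origin. The SD of the mitosis score over the mice was 0.84, and that of what remained after a line on the hepatoma score was 0.25. Those remainders had arm means of -0.03 ± 0.22 for placebo (SD, n = 6), -0.02 ± 0.23 for lenvatinib, -0.03 ± 0.23 for anti-PD1 and 0.09 ± 0.35 for the combination (SD, n = 5 each).

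Other cell cycle genes were read from lists drawn up with the mitosis genes. The score of 58 other mitosis genes had r = 0.99 with the mitosis score, and all 58 genes correlated above 0, from Mad1l1 (0.16) to Smc2 and Dlgap5 (0.96 each). For lenvatinib against placebo 57 of 58 had a higher mean (median 0.65), and 17 had an unadjusted p under 0.05 (2.92% of all probe sets were higher at that p), with the centriole protein Stil (1.40 ± 0.44), the motor Kifc1 (0.54 ± 0.18) and the checkpoint protein Kntc1 (0.99 ± 0.36) at the smallest p. The 28 DNA replication genes, which act in S phase, had r = 0.98 as a score, and 27 had a higher mean under lenvatinib (median 0.59), with 3 at an unadjusted p under 0.05, beside the same 2.92%. Those with the smallest p were the clamp loader subunit Rfc3 (1.21 ± 0.52), the licensing factor Cdt1 (0.98 ± 0.42) and the helicase subunit Mcm5 (0.92 ± 0.40). The replication genes Orc1 (r = -0.21) and Tk1 (-0.09) had correlations below 0 with the mitosis score. None of these genes passed the adjusted threshold in limma.

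Regulators of the cycle were less uniform. Of 16 genes of the G1 to S step, 11 had a higher mean under lenvatinib (median 0.60), with E2f7 (0.58 ± 0.24), Rbl1 (0.74 ± 0.32) and Ccne2, cyclin E2 (1.01 ± 0.46), at the smallest p. Cdk4 (r = 0.97) and the E2F repressor E2f8 (0.97) followed the mitosis score, while cyclin D2 (Ccnd2, -0.71) and the retinoblastoma gene Rb1 (-0.51) ran against it. Of 11 factors that control mitotic transcription, Mybl2 (0.93), Tfdp1 (0.92) and Lin9 (0.87) followed the score, whereas the NF-Y subunits Nfya, Nfyb and Nfyc had 0.06, 0.31 and 0.02. Their median difference under lenvatinib was -0.05, with Lin52 (-0.72 ± 0.28), Tfdp1 (0.58 ± 0.26) and Lin9 (0.58 ± 0.34) at the smallest p. Of 11 CDK inhibitors and antiproliferative genes, Cdkn2c, the p18 inhibitor of CDK4 and CDK6, had the lowest correlation (-0.78) and the smallest p under lenvatinib (-1.46 ± 0.46, adjusted p = 0.693 in limma), followed by Gadd45a (-0.40 ± 0.25) and Cdkn1c (-0.25 ± 0.18). In that list Cdkn2b (0.87) and Cdkn2a (0.78) had the highest correlations.

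Among 19467 named genes outside the list, those most like the mitosis score over 21 mice were the zinc importer Slc39a4 (r = 0.982), the chromatin ATPase Atad2 (0.977), Sinhcaf (0.977), the helicase subunit Mcm2 (0.975) and the secreted liver peptidase Cpn1 (0.971). Cdk4 (0.969), Slc35f2 (0.968), Hunk (0.966), E2f8 (0.965) and Prr11 (0.965) followed. With arm means removed 9 of these 10 were again among the highest, and Mcm5 (0.971) took the place of Hunk. The lowest were Tdrkh (-0.934), Isoc2a (-0.925), lipoprotein lipase Lpl (-0.923), Nudt18 (-0.916) and Cebpa (-0.908). With arm means removed they were Tdrkh (-0.958), Akap12 (-0.937), Lpl (-0.933), Htra3 (-0.930) and Erbb4 (-0.926).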

How the data were processed

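RNA of 21 tumours, each of a different mouse, was hybridised to Clariom S arrays. The table the authors deposited holds log2 signals, for which the submitters' processing notes name RMA and oligo. RMA quantile-normalises probe intensities, so levels are relative and a shift shared by most genes is removed, yet the spread of the deposited values still differed between arrays. The genome build and annotation the authors used were not named in the sources at hand. Precision is limited by the number of arrays, which carry no depth of reads. Mice were grouped by their labels and are separate animals.

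Of 29129 table entries, 6923 control entries were left out and 22206 probe sets tested, with no filter. By the platform annotation, 19572 had 1 gene symbol, 0 had several and 2634 are unnamed here. The brightest probe set stood for a gene. limma 3.58.1 in R 4.3.3 fitted 4 arm means over all arrays (lmFit, eBayes), and p-values were two-sided and Benjamini-Hochberg adjusted over all probe sets within each of 7 contrasts. The fit was tested on simulated data. Scores, correlations and motif counts were described without a test.

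The genes and lists were chosen with earlier results of these data known. Any listed mitosis gene could be named. For each contrast the 3 with the smallest p, the 2 with the largest, Mki67, Top2a and Cdk1 were given in full, with Ccnb1 not analysed. For related lists the rule took the 3 smallest p for lenvatinib against placebo, and for likeness the 10 highest and 5 lowest correlations. Other genes were named after their values were seen. The printed promoters were those of the 4 brightest genes holding both motifs.

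Alternatives were keeping probe sets above the 40th percentile by mean signal, trend and robust settings, cyclic loess, array weights, only the arms compared, a replicate block, the hybridization control signal as a covariate, an adjusted p under 0.1, the mean over probe sets, and leaving out each mouse. Added after seeing the data were leaving out 6 arrays with bright controls and the hepatoma score as a covariate.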

Additional observations from a re-analysis of the deposited data

Results flagged for a closer look

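Bub1b, a spindle checkpoint gene, stood apart in anti-PD1 mouse 5. It read 5.08 there against 3.35 to 3.79 in the other 4 anti-PD1 mice, a gap of 0.749 of the range of that arm. The same mouse had the highest mitosis score of all 21, and Bub1b lay above the negative-control median in 7 mice. This was 1 of 156 groups examined (each of 38 genes and the score in 4 arms), and chance alone sets apart about 1 in 20.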

How the results depend on the processing

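No mitosis gene passed at an adjusted p under 0.05 in limma in any of the 7 comparisons. This held under each alternative run except array weights, which gave the 6 arrays with bright controls weights of 0.178 to 0.643. There 2 genes passed for the combination against lenvatinib and 10 for the interaction, among 707 and 1691 of the 22206 probe sets. For the combination against anti-PD1, 504 probe sets passed with array weights. The median gene difference for lenvatinib against placebo went from 0.98 to 0.00, and for the interaction from -1.13 to 0.07, with the hepatoma score as a covariate. Without the 6 arrays with bright controls 233 probe sets and 0 mitosis genes passed for the combination against anti-PD1. Leaving out 1 mouse at a time gave 0 to 1 probe sets for the combination against lenvatinib, 0 to 338 for the combination against anti-PD1 and 0 to 320 for the interaction, the highest of each without combination mouse 1, and 0 mitosis genes. The cause of these changes was not tested. With mouse number as a replicate block the medians for lenvatinib, anti-PD1 and combination against placebo were 0.84, 0.27 and 0.06, and no gene passed. Same-numbered mice of different arms correlated between -0.635 and 0.562 in their deviations, and 5 of 30 matched best with their own number. The median correlation was 0.103 for same-numbered mice and -0.04 for differently numbered ones. Whether same-numbered mice share a block was not tested further. Each mitosis gene had 1 probe set, so averaging probe sets changed nothing. The dim genes Kif4, Bub1b, Cdc25c and Ect2 lie near background.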
